A study of Rattus norvegicus with 4 samples.

Results

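A family of 19 overlapping sequences, given the provisional name of transfer RNA for aspartate (tRNA-Asp) fragments, was followed across 4 small-RNA libraries of rat hippocampus. All listed sequences that shared an identical stretch of 20 bases were joined, also through intermediate sequences, and the families holding novel_3644_x506, novel_14794_x136 or novel_1651_x1057 were taken. All 3 fell into 1 family, which holds 19 of the 3129 listed sequences and is 1 of 307 families. Its members were chosen by their measured tags above the IgG library, so every ratio over IgG is a description of that choice and carries no weight here.

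The RNA was recovered by RNA immunoprecipitation (RIP) from the CA1 region, a field of pyramidal neurons in the hippocampus, of adult male Wistar rats aged 7 to 8 weeks. Tags came from HPC0h (0 h, an abbreviation that the labels do not spell out), tGCI26h (transient global cerebral ischemia, 26 h), Sham and an IgG control library, and per the series title the RNA of the first 3 was bound to Piwil2. There was 1 library per group, although the design text speaks of 3 replicates, and whether animals were pooled is not stated. No spread between animals could therefore be measured, no test between conditions was made, and each 95% interval is exact and covers counting error only. The deposited columns are tied to HPC0h, tGCI26h and Sham only through a time or a first letter in their names, and the names of these 3 libraries rest on that tie. The tissue could not be checked against marker genes, since only small-RNA sequences are listed. In such bulk RNA, fewer cells of a type and less RNA per cell cannot be told apart.

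Transfer RNAs carry amino acids to the ribosome, and the anticodon of tRNA-Asp, GTC in DNA letters, reads the codons of aspartate. Every tRNA folds into arms, among them the anticodon arm, the T arm with a short stem around a loop that opens with TTC, and the acceptor stem, whose 3′ tail ends in CCA. Cells cut tRNAs into shorter fragments under stress, in mammals by the nuclease angiogenin within the anticodon loop, and such fragments are found in small-RNA libraries of many tissues. Piwil2 is a PIWI protein, and PIWI proteins bind piRNAs, whose first base is often a U (T in DNA letters) and which in some classes have an A at base 10.

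Of the 19 members, 15 overlap exactly and join into a single sequence of 40 nt. It is shown because all ends below are numbered from 1 at its 5′ base, and its capitals mark the GTC triplet at positions 3 to 5.

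joined sequence: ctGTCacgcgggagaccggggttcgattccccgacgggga

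The next 6 members show how the fragments differ at their ends. The first 3 are those named by the rule, novel_19801_x107 is the most abundant, novel_9909_x195 is the same fragment without its last 2 bases, and novel_7169_x265 starts earliest. Capitals mark the bases after position 38.

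novel_3644_x506: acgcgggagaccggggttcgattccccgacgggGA

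novel_14794_x136: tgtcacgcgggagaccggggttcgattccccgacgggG

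novel_1651_x1057: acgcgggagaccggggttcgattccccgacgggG

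novel_19801_x107: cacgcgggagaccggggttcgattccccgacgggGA

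novel_9909_x195: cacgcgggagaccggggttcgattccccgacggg

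novel_7169_x265: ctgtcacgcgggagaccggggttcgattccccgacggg

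The other 4 members differ from the joined sequence inside the fragment. They are shown because they are tied to the family by the shortest stretches, and their capitals mark each base that differs.

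novel_19391_x108: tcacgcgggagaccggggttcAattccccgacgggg

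novel_18545_x112: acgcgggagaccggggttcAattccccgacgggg

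novel_7367_x258: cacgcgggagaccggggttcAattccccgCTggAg

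novel_12956_x153: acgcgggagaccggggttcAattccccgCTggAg

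The joined sequence comes first in each change below, with its position. Both novel_19391_x108 and novel_18545_x112 carry G25A alone, and novel_7367_x258 and novel_12956_x153 carry G25A, A34C, C35T and G38A. Just inside the 20-base rule, novel_19391_x108 shares 21 and novel_7367_x258 shares 20 bases with a member of the joined sequence, and the other 2 variants share 19 and are tied in through these. Just outside it, novel_12403_x159 and novel_13761_x146 share 13 bases with a member. These outside sequences had few tags: novel_12403_x159 had 4 in tGCI26h and 2 in Sham, novel_13761_x146 had 6 in tGCI26h and 2 in Sham, and neither was listed in HPC0h or IgG.

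The members were 31 to 38 nt long, with a median of 34 nt, and all 19 shared the 17 bases at positions 8 to 24. All 19 held an inverted repeat with a stem of 5 bases around a loop of 7, read on the strand as listed, against 81 of all 3129 sequences (2.59%). With TTC as the first bases of the loop, as in the T arm, the count was 19 of 19 members and 33 in the table (1.05%), spread over 5 families. The GTC triplet was present in 3 members (15.8%), which start before it, against 1246 sequences (39.8%). No member ended in CCA, which 21 sequences did (0.671%). The name tRNA-Asp stays provisional: the RefSeq gene table (GRCr8) lists 26 Trnad-guc genes among 766 tRNA genes, but no tRNA sequence was at hand to match the members to, so no genome position is given.

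The bases that mark many piRNAs were counted at their positions. A T stood first in 4 of 19 members (21.1%), against 24.7% of the table, and an A stood at base 10 in 7 of 19 (36.8%), against 24.4%. None of the 19 members has a name of the rno_piR kind. Since members overlap, these shares rest on few distinct ends.

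Counts of nested sequences are tied to each other. In 11568 pairs of listed sequences 1 lies wholly inside the other, and in 26420 of the 26420 library values where the shorter was listed the longer had at least as many tags. Among the members this held in 223 of 223 values from 67 pairs, with equal counts in 21. The sources used here do not give how reads were assigned to sequences, so a tag may be counted in several members, and the sum over members may count it more than once, which would make the intervals of summed levels too narrow. The part of the counting rule in each value was not tested, and members are treated below as overlapping views of few fragments, not as independent measurements.

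All 19 members were listed in HPC0h and in tGCI26h, 17 in Sham and 16 in IgG. A member had 2 to 80 tags in HPC0h (median 41), 4 to 144 in tGCI26h (median 58), 2 to 113 in Sham (median 6) and 4 to 25 in IgG (median 8.5), over the members listed there. The lowest value listed in any library is 2. The libraries differ in depth, with 830634 listed tags in HPC0h, 222511 in tGCI26h, 159215 in Sham and 668857 in IgG, so levels are given below as tags per 1000000 listed tags (CPM).

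The summed tags of the family were 679 in HPC0h, 1059 in tGCI26h, 398 in Sham and 182 in IgG. As a share of listed tags that was 0.0817% in HPC0h (95% interval 0.0757 to 0.0881), 0.476% in tGCI26h (0.448 to 0.505), 0.250% in Sham (0.226 to 0.276) and 0.0272% in IgG (0.0234 to 0.0315). The tGCI26h library was the highest and the IgG library the lowest, the latter being tied to the choice of members. No 2 of the 4 intervals overlap, but they take every summed tag as separate and may be too narrow. Their lack of overlap is therefore not a measure of the difference between libraries. If each tag were counted in every listed sequence that contains it, the 19 members would stand for 90 to 108 separate tags in HPC0h, 220 to 243 in tGCI26h, 116 to 130 in Sham and 33 to 54 in IgG. The lower bound takes the tags of the 4 variants as shared with the other members and the upper bound as separate.

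The summed level was 4759 CPM in tGCI26h and 2500 CPM in Sham, a 1.9-fold difference (interval of the ratio 1.70 to 2.14). With each tag counted once the ratio would lie between 1.21 and 1.5. This range, like those given below for tags counted once, bounds the ratio only and leaves out counting error. It therefore does not show whether a ratio of 1 is excluded. A call of higher or lower needed 10 tags or more in 1 of the 2 libraries, a CPM ratio of 2 or more in either direction, and an interval clear of 1. Of the 15 members with enough tags, 9 were higher in tGCI26h and 0 lower, where 27.2% of 1366 sequences of the table were higher and 13.9% lower. The median log2 ratio was 1.89 over the members listed in both libraries, against 0.29 over all such sequences.

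The calls split by where the fragment ends. All 5 measured members of the joined sequence that end at position 38 were higher in tGCI26h, by 8.94-fold to 22.5-fold. The 4 that end at position 39 were higher too, by 2.77-fold to 5.37-fold. The 4 that end at position 40 were not called, with tGCI26h over Sham ratios of 0.532 to 0.832, and the 2 measured variants were not called, with a ratio of 1.31. The ratio of tGCI26h over Sham was thus lower at each later 3′ end, with no overlap between the point ratios of the 3 ends. These steps are not independent, since a member ending at 39 may hold the tags of the one ending at 38. From start 2, the member ending at 39 had 36 more tags than that ending at 38 in tGCI26h and 14 more in Sham. From start 6 the difference was 14 in tGCI26h and 8 in Sham, and from start 7 it was 6 in each. Whether end 39 by itself differs was not tested. The counting intervals of ends 38 and 39 do overlap. They were 2.23 to 77.9 for novel_4082_x454 (positions 7 to 38), which had 2 tags in Sham, and 2.76 to 11.6 for novel_1651_x1057 (positions 6 to 39).

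The member with the highest ratio was novel_9909_x195 (positions 5 to 38), with 63 tags in tGCI26h and 2 in Sham. That is 283 CPM in tGCI26h and 12.6 CPM in Sham, a 22.5-fold difference with an interval of 5.99 to 190 that the 2 tags of Sham leave wide. The fragment with the same start and 2 more bases, novel_19801_x107, had 123 tags in tGCI26h and 113 in Sham, or 553 and 710 CPM in the same order. Its ratio of 0.779 (0.598 to 1.01) was not distinguishable from 1 at this depth, so fragments that share a 5′ end lay far apart in this comparison.

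Among the sequences named by the rule, novel_14794_x136 (positions 2 to 39) had 127 tags in tGCI26h and 19 in Sham, a 4.78-fold higher level in tGCI26h (2.94 to 8.21). The second, novel_1651_x1057 (positions 6 to 39), had 75 tags in tGCI26h and 10 in Sham, and was 5.37-fold higher (2.76 to 11.6). The last, novel_3644_x506 (positions 6 to 40), had 114 tags in tGCI26h and 98 in Sham, with a ratio of 0.832 (0.630 to 1.10). It is novel_1651_x1057 with a single further base, and the 2 do not share a call.

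The lowest ratio belonged to novel_3248_x567 (positions 7 to 40), which had 58 tags in tGCI26h and 78 in Sham. At 261 CPM in tGCI26h and 490 CPM in Sham its ratio was 0.532 (0.372 to 0.757), whose interval lies below 1 while the size misses the 2-fold limit. Library scaling mattered here: with TMM factors, a trimmed mean over all sequences, the ratio was 0.461 (0.323 to 0.657) and with median-of-ratios size factors 0.458 (0.320 to 0.651), and under either this member was called lower. The member that starts earliest, novel_7169_x265 (positions 1 to 38), stood at the other side with 144 tags in tGCI26h and 5 in Sham, a 20.6-fold higher level (8.63 to 64.4).

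In HPC0h the family was lower than in tGCI26h almost throughout. The summed level was 817 CPM in HPC0h and 4759 CPM in tGCI26h, a ratio of 0.172 (0.156 to 0.189), or 5.82-fold lower in HPC0h, and would lie between 0.0992 and 0.132 with each tag counted once. Of 17 members with enough tags, 15 were lower in HPC0h and 0 higher, where 21.0% of 2036 sequences were lower and 21.0% higher. The median log2 ratio was -2.40 over the members, against -0.03 over all sequences listed in both libraries. Without the family of novel_88_x12235, a provisional 28S rRNA fragment, 390939 listed tags remain in HPC0h and 152356 in tGCI26h, and with these totals the ratio was 0.250.

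Here the 3′ end did not separate the members. All 13 measured members of the joined sequence were lower in HPC0h, with HPC0h over tGCI26h ratios of 0.104 to 0.231 over the 3 ends. The lowest was novel_7169_x265, with 56 tags in HPC0h and 144 in tGCI26h, or 67.4 and 647 CPM in that order, which is 9.60-fold lower in HPC0h (interval of the ratio 0.0751 to 0.143). The most abundant member, novel_19801_x107, had 80 tags in HPC0h and 123 in tGCI26h and was 5.74-fold lower in HPC0h. Of the sequences in the rule, novel_14794_x136 had 60 tags in HPC0h and 127 in tGCI26h (7.90-fold lower), novel_3644_x506 had 80 and 114 (5.32-fold lower) and novel_1651_x1057 had 55 and 75 (5.09-fold lower).

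The exceptions were 2 of the 4 variants. Both novel_7367_x258 and novel_12956_x153 had 12 tags in HPC0h and 4 in tGCI26h, and their CPM ratio of 0.804 (0.244 to 3.42), the highest of all members, was not called. The variants with G25A alone each had 6 tags in HPC0h and 11 in tGCI26h, a ratio of 0.146 (0.0444 to 0.431), and were called lower. The intervals of the 2 kinds overlap, and each kind is a nested pair that may hold the same tags.

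The comparisons of tGCI26h with Sham and of HPC0h with tGCI26h share the tGCI26h library, so they are not independent.

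Between HPC0h and Sham the members went both ways. The summed level was lower in HPC0h, with 817 CPM in HPC0h and 2500 CPM in Sham, a ratio of 0.327 (0.289 to 0.371). With each tag counted once it would lie between 0.133 and 0.178, below that interval. Of 15 members with enough tags, 2 were higher in HPC0h and 4 lower, where 25.4% of 2020 sequences were higher and 15.9% lower. The median log2 ratio was 0.08, against 0.17 over all sequences. All 4 lower members end at position 40, with HPC0h over Sham ratios of 0.101 to 0.156. The 4 measured members that end at position 39 were not called, at 0.527 to 1.05, and of the 5 that end at position 38 the ratio was 1.82 to 4.70 and 2 were called higher.

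Those 2 were novel_9909_x195 and novel_3619_x509 (positions 6 to 38), each with 49 tags in HPC0h and 2 in Sham, a 4.70-fold higher level in HPC0h (1.23 to 39.9). With a minimum of 50 tags neither was called, and the calls were 0 higher and 3 lower of 8. The lowest ratio was that of novel_3248_x567, with 41 tags in HPC0h and 78 in Sham, which was 9.93-fold lower in HPC0h (interval of the ratio 0.0673 to 0.149). The rule's novel_3644_x506 was lower in HPC0h as well, with 80 tags in HPC0h and 98 in Sham and a ratio of 0.156 (0.115 to 0.212). With totals that leave out the family of novel_88_x12235, 4 members rather than 2 were higher in HPC0h, now also novel_7169_x265 at 3.05-fold and novel_6201_x302 (positions 2 to 38) at 2.78-fold.

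The position of the 3′ end can be read inside each library, where library totals and scaling cancel. Depth still acts through blank cells, which count as 0 and were most frequent in Sham (1380). Since counts are nested, the tags of a fragment ending at position 38 were set against those of the fragment with the same start that ends at position 40. From start 5, novel_9909_x195 had 49 of the 80 tags of novel_19801_x107 in HPC0h, or 61.3% (49.7 to 71.9). The same share was 63 of 123 in tGCI26h, 51.2% (42.0 to 60.3), and 2 of 113 in Sham, 1.77% (0.215 to 6.25). In IgG it was 8 of 25, 32% (14.9 to 53.5). The Sham library was the lowest, and its interval does not reach those of the other 3.

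From start 6, the share of novel_3619_x509 in novel_3644_x506 was 61.3% in HPC0h, 53.5% in tGCI26h, 2.04% in Sham and 42.1% in IgG. From start 7, novel_4082_x454 made up 46.3% of novel_3248_x567 in HPC0h, 43.1% in tGCI26h, 2.56% in Sham and 26.7% in IgG. From start 8 tags were few: novel_8835_x218 had 2 of the 19 tags of novel_4175_x444 in HPC0h and 5 of 22 in tGCI26h, and was not listed in Sham, beside 24 tags, or in IgG, beside 5. These pairs overlap and largely hold the same tags, so they show 1 pattern and not 4. The authors' normalized table gave 57.8% in HPC0h, 51.0% in tGCI26h, 3.07% in Sham and 29.2% in IgG from start 5.

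The odds of the shorter fragment, which compare such shares between libraries, were 57.4 times higher in tGCI26h than in Sham from start 5 (exact conditional interval 14.4 to 501) and 28.1 times higher from start 7 (6.40 to 258). All 4 pairs were higher in tGCI26h, by odds of 2 times or more with an interval above 1, where 9.60% of 396 pairs of listed sequences that differ by 2 bases at the 3′ end were. In HPC0h the odds were 85.3 times those in Sham from start 5 (20.5 to 764), and 3 of 4 pairs were higher, against 19.3% of 430 pairs. Between HPC0h and tGCI26h the odds ratio from start 5 was 1.5 (0.818 to 2.78), and 0 of 4 pairs were higher or lower, against 25.9% of 526 pairs. The interval of that last odds ratio still includes a share that is higher in HPC0h, so the 2 libraries are not shown to be alike. Over all such pairs of the table the median share was 13.7% in HPC0h, 7.14% in tGCI26h, 4.51% in Sham and 13.0% in IgG, so Sham was also the lowest there, by a smaller step.

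Shares were read in the same way at the 5′ end. Of the tags of novel_7169_x265, which starts at position 1, novel_6201_x302 at position 2 held 51 of 56 in HPC0h (91.1%), 91 of 144 in tGCI26h (63.2%), 5 of 5 in Sham and 16 of 16 in IgG. Inside the same fragment, novel_9909_x195 starts at position 5, the last base of the GTC triplet. It held 87.5% of those tags in HPC0h, 43.8% in tGCI26h, 40% in Sham and 50% in IgG. The odds of the shorter fragment were 5.90 times higher in HPC0h than in tGCI26h for position 2 (2.17 to 20.1) and 8.91 times higher for position 5 (3.68 to 24.9). Among member pairs that differ by 1 base at the 5′ end, 2 of 9 were higher in HPC0h than in tGCI26h, where 28.2% of 549 pairs of the table were, so the share of member pairs lies near the background. For start 7 against start 6 the HPC0h over tGCI26h odds ratio was near 1, with 0.913 (0.393 to 2.10) at end 38, 0.947 at end 39 and 1.01 at end 40. Start 6 against start 5 was higher in HPC0h at end 40, with 80 of 80 tags in HPC0h and 114 of 123 in tGCI26h (interval from 1.33 upward). At end 38 that pair had 49 of 49 and 61 of 63, with an interval from 0.146 upward that includes 1.

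Taken as differences of nested counts, the tags of the joined sequence fall into classes by both ends. Fragments that start at positions 1 to 4 and end by 38 had 7 tags in HPC0h, 81 in tGCI26h, 3 in Sham and 8 in IgG, or 8.43, 364, 18.8 and 12 CPM in that order. They hold the GTC triplet or its last 2 bases. Against tGCI26h they were 43.2-fold lower in HPC0h (interval of the ratio 0.00902 to 0.0499), and tGCI26h was 19.3-fold above Sham (6.38 to 95.6). Fragments that start at position 5 or later and end by 38 had 49 tags in HPC0h, 63 in tGCI26h, 2 in Sham and 8 in IgG, or 59.0, 283, 12.6 and 12 CPM.

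The same starts with an end at 39 or 40 had 31 tags in HPC0h, 60 in tGCI26h, 111 in Sham and 17 in IgG, or 37.3, 270, 697 and 25.4 CPM. Of these 3 classes, this was the one in which Sham was the highest library, with tGCI26h over Sham at 0.387 (0.278 to 0.534) and HPC0h over Sham at 0.0535 (0.0347 to 0.0803). The summed level of the family therefore joins a class that was higher in tGCI26h than in Sham with a class that was lower. The remaining class, which starts at positions 1 to 4 and ends at 39 or 40, had 3 tags in HPC0h, 16 to 24 in tGCI26h, 0 to 6 in Sham and 0 in IgG. These classes hold only if each tag is counted in every listed sequence that contains it, which was not tested.

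The variants were a small part of the family in HPC0h, tGCI26h and Sham, and a larger part in IgG. Members of the joined sequence held 643 of the 679 summed tags in HPC0h, 1029 of 1059 in tGCI26h, 382 of 398 in Sham and 152 of 182 in IgG. Of the tags of novel_18545_x112 and novel_1651_x1057, which share both ends, the variant held 9.84% in HPC0h (3.70 to 20.2), 12.8% in tGCI26h (6.56 to 21.7) and 37.5% in Sham (15.2 to 64.6), and was not listed in IgG beside 8 tags of novel_1651_x1057. The intervals of these 3 libraries overlap. The variant with 4 changes, novel_12956_x153, held 17.9% beside novel_1651_x1057 in HPC0h, 5.06% in tGCI26h, 16.7% in Sham and 52.9% in IgG. Its highest share was thus in the IgG library (27.8 to 77.0), above tGCI26h (1.40 to 12.5). The rule names novel_1651_x1057, whereas the variants came in through joining. Their larger part in IgG is thus tied to the choice of members above IgG and carries no weight here.

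The ratios over IgG describe how the members were chosen. The summed level was 3.00 times that of IgG in HPC0h (2.55 to 3.56), 17.5 times in tGCI26h (14.9 to 20.6) and 9.19 times in Sham (7.69 to 11.0), with 272 CPM in IgG. In HPC0h 13 of 15 measured members were above IgG, beside 17.8% of 2159 sequences above and 17.1% below. In tGCI26h the count was 15 of 16, beside 16.6% of 1961 above and 19.5% below. In Sham it was 7 of 10, beside 12.5% of 1919 above and 28.6% below. No member was called below IgG in any of these. In the classes by both ends, HPC0h over IgG was 4.93 (2.32 to 12.1) for start 5 or later and end 38. It was 0.705 (0.218 to 2.22) for starts 1 to 4 and end 38. For start 5 or later and end 39 or 40 it was 1.47 (0.788 to 2.83). In the same class order the ratio over IgG was 23.7, 30.4 and 10.6 in tGCI26h and 1.05, 1.58 and 27.4 in Sham.

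By 3′ end, the HPC0h library was 2.57 to 4.93 times IgG at position 38, 3.0 to 5.54 at 39 and 2.20 to 3.39 at 40. The tGCI26h library was 17.1 to 27.1 times IgG at position 38, 23.3 to 31.2 at 39 and 11.6 to 18 at 40. In Sham the 2 measured members that end at 38 were at 1.31 times IgG and not called, those that end at 39 were at 4.99 to 8.40, and those that end at 40 at 19.0 to 21.8. The variant novel_7367_x258 lay at 0.568 times IgG in HPC0h, 0.707 in tGCI26h and 0.494 in Sham, none of them called, so it was above IgG in none of the 3 libraries although the joining rule makes it a member.

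The family of novel_2845_x640 (provisionally tRNA-Glu, 7 members) and that of rno_piR_005567 (provisionally tRNA-Gly, 3 members) were set beside it for their tRNA names. They are not alike in sequence features. In HPC0h the tRNA-Glu family had 63860 CPM and the tRNA-Gly family 6726 CPM. All listed sequences with the T-arm stem and TTC loop held only 0.0961% of HPC0h tags, so most tags of both families lack it. The other families with that stem and loop were not compared. The summed ratio of tGCI26h over Sham was 1.9 (1.70 to 2.14) for tRNA-Asp, 1.06 (1.04 to 1.08) for tRNA-Glu and 0.391 (0.374 to 0.408) for tRNA-Gly. For HPC0h over tGCI26h it was 0.172 (0.156 to 0.189) for tRNA-Asp, 0.454 (0.448 to 0.460) for tRNA-Glu and 0.465 (0.445 to 0.486) for tRNA-Gly. All 3 ratios lay below 1, and that of tRNA-Asp was the lowest. Since sums may count a tag more than once, these intervals are not a measure of the difference between families. Between HPC0h and Sham the ratio was 0.327 (0.289 to 0.371) for tRNA-Asp, below the 0.479 of tRNA-Glu and above the 0.182 of tRNA-Gly.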

How the data were processed

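Per the file headers, the raw table that was deposited gives tag counts of each sequence. The second deposited table holds normalized tag counts of unstated scaling, treated as a score and used only as an alternative. Novoalign 3.02.12 and cutadapt 1.9.3 are named, without a role, in the submitters' processing notes. Not given in the sources used here were the genome build, the piRNA catalogue and the counting rule. Lines emptied for this work number 40 in the raw and 46 in the normalized table.

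A blank cell, called not listed, counted as 0 in ratios, although reads may exist: the normalized table has values for 195 blank cells of HPC0h, 706 of tGCI26h, 807 of Sham and 374 of IgG. Listed tags stood in for library totals. Intervals are Clopper-Pearson (scipy 1.17.1), conditional for odds ratios. PCR copies without molecular identifiers are not independent molecules. With 1 library per group, edgeR's quasi-likelihood test and DESeq2 could not be run. edgeR 4.0.16 gave TMM factors only. The calls and the joining were tested on simulated data, and the odds ratio on a made-up case. The simulated counts were independent, unlike the nested counts here. The joined sequence, the classes by end and the tags counted once were not tested in this way.

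The members and lists were chosen with earlier results of these data known. Named sequences were those in the rule, the 3 with the highest summed CPM, the highest and lowest ratio in each comparison, and those nearest the 20-base limit. Other members were named after their values were seen, to show the ends. Alternatives were other scalings and totals, a minimum of 50 tags, the normalized table, joining by 18 or 24 bases and leaving out the most abundant member. Those on nested counts were chosen after seeing the data.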

Additional observations from a re-analysis of the deposited data

Results flagged for a closer look

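The authors' normalized table holds 2 further sequences that share 20 bases with a member and are not in the raw table, so no comparison above uses them. The first, novel_10297_x188, is listed at 4 in tGCI26h and not in HPC0h, Sham or IgG. The second, novel_6053_x308, is listed at 1 in HPC0h and at 4 in tGCI26h, and not in Sham or IgG. They are given here because the raw table, the base of the comparisons, does not hold them. With values this low and no stated scaling, no ratio is given.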

How the results depend on the processing

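Of 112 alternative values, 81 stayed within the counting interval or within 1.5 times the count, 31 moved and none reversed. For tGCI26h over Sham the summed ratio of 1.9 was 1.65 with TMM factors, 1.64 with median-of-ratios size factors, 2.35 without the most abundant member and 1.21 to 1.5 with each tag counted once. For HPC0h over tGCI26h the 0.172 was 0.203 with TMM factors, 0.190 with size factors, 0.250 with totals that leave out the family of novel_88_x12235, 0.193 in the normalized table, 0.140 over the 5 members contained in no other and 0.0992 to 0.132 with each tag once. For HPC0h over Sham the 0.327 was 0.464 with the totals without that family, 0.403 without the most abundant member, 0.283 over the uncontained members and 0.133 to 0.178 with each tag once. The over-IgG sums moved to 3.74 (totals without that family), 2.44 (normalized table), 2.21 (uncontained members) and at least 1.34 (each tag once) in HPC0h, to 12.6 (normalized table) and 12.2 to 22.1 (each tag once) in tGCI26h, and to 6.69 (normalized table), 7.63 (without the most abundant member) and at most 16.5 (each tag once) in Sham. Counts of called members fell to 3 for HPC0h over Sham (0 higher, 3 lower), 3 for Sham over IgG and 7 for HPC0h over IgG with a minimum of 50 tags, and Sham over IgG reached 12 in the normalized table, 11 higher and 1 lower. For these values the cause was not tested, apart from the fewer members that a minimum of 50 tags leaves. Joining by 18 bases kept 19 members and by 24 bases 15, without the 4 variants. No paired analysis was possible because there is 1 library per group, and for the same reason no replicate could be left out. Members with 2 to 5 tags in Sham carry wide intervals, and sequences under 10 tags in both libraries were not called.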
